A study of Homo sapiens with 18 samples.

Results

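The genes described here are the secreted and membrane-bound metalloproteinases of the MMP and ADAMTS families and their tissue inhibitors, the TIMPs, after depletion of FLI1 in Ewing sarcoma cells. Members were all rows whose symbol is MMP or ADAMTS followed by a number, or TIMP followed by 1 to 4. This gave 45 of 58381 rows: 22 MMP, 19 ADAMTS and 4 TIMP genes. Ewing sarcoma is a tumour of bone and soft tissue, and TC-32, TC-71 and A673 are established lines of it that carry the fusion of EWSR1 with the ETS transcription factor gene FLI1. Messenger RNA was sequenced in 18 libraries, which form 6 groups of 3: each line after a negative control siRNA (siNeg) and after an siRNA against FLI1 (siFLI1), each used at 20 nM by lipid transfection. The siFLI1 groups of all 3 lines received the same single siRNA, which reaches the fusion transcript and any unfused FLI1 transcript alike. TC-32 and TC-71 were grown in RPMI medium and A673 in DMEM. The columns of TC-32 and TC-71 give 48 h, and those of A673 give no time. Counts came from RSEM for TC-32 and A673 and from Subread for TC-71. In a comparison of TC-32 with A673, medium and any difference in time therefore cannot be told apart from the line, in TC-71 with TC-32 the counting program cannot, and in A673 with TC-71 none of these can. The extent of FLI1 depletion also differed between the lines, and A673 was sequenced more deeply, as the values below show. These too cannot be told apart from the line. Nothing in the labels says that replicates were separate cultures, so p-values measure the spread between these libraries, which may be technical.

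MMPs and ADAMTS proteases are zinc enzymes that cut proteins of the extracellular matrix. Most are made as inactive precursors, and many MMPs are activated outside the cell by other proteases. The 4 TIMPs block the active site of these enzymes, TIMP3 being the one that stays bound to the matrix and reaches several ADAMTS proteases. TIMP2 also takes part in activation, since the precursor of MMP2 is brought to membrane-bound MMP14 by TIMP2. In bone and cartilage these enzymes turn over collagen and aggrecan, and in tumours they are known for their part in invasion and vessel growth.

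The TC-32 libraries held 24102487 to 33669271 counts each, the TC-71 libraries 19685354 to 37234528 and the A673 libraries 114564479 to 120993595. On the CPM scale, which divides counts by the scaled library size, 3 counts correspond to 0.0246 to 0.152 depending on the library. The target FLI1 stood at 42.8 to 47.7 CPM in the siNeg and 21.7 to 22.6 CPM in the siFLI1 libraries of TC-32, at 48 to 52.8 and 17.2 to 19.9 CPM in TC-71, and at 75.4 to 76.8 and 17.6 to 18.3 CPM in A673. A list of 6 genes that mark Ewing sarcoma cells summed to 693 CPM or more in every siNeg library and to at most 384 CPM in any siFLI1 library. One of the 6, CD99, the surface protein used in diagnosis, held 0 counts in all TC-71 libraries. CD99 is one of 45 pseudoautosomal genes that the tables hold in a pair of rows, and 44 of these 45 held 0 counts in every TC-71 library, against 18 in TC-32 and 18 in A673, so no level of CD99 in TC-71 is read from this table. The 5 leukocyte markers PTPRC, CD14, CSF1R, CD163 and CD3E summed to at most 1.73 CPM in any library. The 4 endothelial markers summed to 33.4 to 34.6 CPM in siNeg and 5.01 to 6.48 CPM in siFLI1 libraries of TC-32, and to 5.52 to 6.40 and 28.9 to 32.5 CPM in those of A673, with KDR the highest in both siNeg groups. These are bulk libraries, in which a change in the number of cells that express a gene and a change in RNA per cell cannot be told apart.

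Most members that could be tested were higher after siFLI1, although genes overall were called about evenly in both directions. A gene was tested where its counts passed a low-count filter, and was called where the edgeR quasi-likelihood test gave a Benjamini-Hochberg adjusted p under 0.05 over all genes tested. In TC-32, 24 of 31 members tested were called higher (77.4%, against 41.3% of all genes) and 3 were called lower (9.68%, against 40.1%). In TC-71, 20 of 29 were called higher (69.0%, against 36.8%) and 5 lower (17.2%, against 35.0%). In A673, 26 of 34 were called higher (76.5%, against 35.6%) and 7 lower (20.6%, against 35.4%). At least 2-fold calls numbered 22 higher and 2 lower in TC-32 (against 22.0% and 15.6% of all genes), 16 and 2 in TC-71 (14.1% and 9.38%), and 20 and 4 in A673 (13.3% and 9.87%). The siNeg and siFLI1 libraries did not overlap for 27 members in TC-32 (87.1%, against 82.6% of all genes), 28 in TC-71 (96.6%, against 73.8%) and 32 in A673 (94.1%, against 73.6%). For TC-32, TC-71 and A673 in turn, the members tested had a median log2 fold change of 2.51, 1.20 and 1.24, beside 0.022, 0.018 and -0.0066 for all genes. With genes whose siNeg libraries were all at 0 set to their lower bound, the TC-32 median was 2.09. These counts describe the members that passed the filter. Some passed only through their siFLI1 libraries, which favours a higher call. Examples in TC-32 were MMP3, MMP13, MMP19, MMP24, MMP28, ADAMTS6, ADAMTS8, ADAMTS12, ADAMTS14, ADAMTS17 and TIMP4. Further examples were MMP10, MMP28, ADAMTS5 and ADAMTS16 in TC-71, and MMP13, ADAMTS5 and ADAMTS7 in A673. MMP8 and MMP25 in A673 passed only through their siNeg libraries, which favours a lower call. The shares and medians above include such members. The filter left out 14 members for TC-32, 16 for TC-71 and 11 for A673, and 7 were tested in no line: MMP7, MMP20, MMP21, MMP26, MMP27, ADAMTS18 and ADAMTS20. Of these, MMP20, MMP26, MMP27 and ADAMTS18 held 0 counts in all 18 libraries, and MMP21 held at most 17 counts in any library.

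Across the lines, 22 members were tested in all 3, 12 in 2 lines and 4 in 1 line. Of the 22, 12 were called higher in every line (54.5%, against 18.9% of the 14233 genes tested in all 3), namely MMP2, MMP11, MMP14, MMP19, MMP24, ADAMTS1, ADAMTS6, ADAMTS7, ADAMTS14, ADAMTS16, TIMP2 and TIMP3. At least 2-fold in every line were 8 of them (36.4%, against 5.0%): MMP11, MMP14, MMP19, MMP24, ADAMTS7, ADAMTS14, ADAMTS16 and TIMP2. Some of the 12 passed the filter in a line only through its siFLI1 libraries. These were MMP19, MMP24, ADAMTS6 and ADAMTS14 in TC-32, ADAMTS7 in A673 and ADAMTS16 in TC-71. None of the 22 was called lower in every line (0 members, against 19.0% of genes). MMP9, MMP25 and TIMP1 were called lower in 2 lines each. The 3 lines share no control library.

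Of the 45 members, 26 had a promoter in the RefSeq table (GRCh38.p14), in 27 entries. The 19 without one include MMP1, MMP2, MMP3, MMP9, MMP13, MMP19, ADAMTS1, ADAMTS5, ADAMTS15, ADAMTS16 and TIMP2. The sequences below are the bases from 250 to 51 before the annotated start of 4 genes called higher in all 3 lines (MMP11, MMP14, ADAMTS14, TIMP3), of ADAMTS12, which rose in both lines where it was tested, and of TIMP1, which was called in opposite directions between lines. For MMP10, the 100 bases before the start are shown. They are printed 5′ to 3′ on the strand of the gene, and capitals mark matches to TGANTCA, the letters of an AP-1 element, to GGAA or its reverse complement TTCC, the core bound by ETS proteins such as FLI1, and to TATAAA.
MMP11, chr22:23772599-23772798, plus strand: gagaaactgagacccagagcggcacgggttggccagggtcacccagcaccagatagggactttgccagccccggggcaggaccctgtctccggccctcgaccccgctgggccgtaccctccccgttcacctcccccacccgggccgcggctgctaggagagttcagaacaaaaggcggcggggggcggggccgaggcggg
MMP14, chr14:22836335-22836534, plus strand: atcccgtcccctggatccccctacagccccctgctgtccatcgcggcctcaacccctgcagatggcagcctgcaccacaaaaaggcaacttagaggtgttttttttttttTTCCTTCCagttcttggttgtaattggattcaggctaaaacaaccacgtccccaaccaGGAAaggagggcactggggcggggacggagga
ADAMTS14, chr10:70672256-70672455, plus strand: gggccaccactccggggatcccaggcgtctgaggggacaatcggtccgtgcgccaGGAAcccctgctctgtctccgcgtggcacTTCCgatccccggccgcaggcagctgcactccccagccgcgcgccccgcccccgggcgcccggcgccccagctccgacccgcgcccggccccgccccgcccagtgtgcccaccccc
TIMP3, chr22:32801455-32801654, plus strand: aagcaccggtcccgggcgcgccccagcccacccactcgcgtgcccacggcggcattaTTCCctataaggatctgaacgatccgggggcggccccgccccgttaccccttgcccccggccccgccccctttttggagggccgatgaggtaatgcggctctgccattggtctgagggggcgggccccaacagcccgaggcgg
ADAMTS12, chr5:33892041-33892240, minus strand: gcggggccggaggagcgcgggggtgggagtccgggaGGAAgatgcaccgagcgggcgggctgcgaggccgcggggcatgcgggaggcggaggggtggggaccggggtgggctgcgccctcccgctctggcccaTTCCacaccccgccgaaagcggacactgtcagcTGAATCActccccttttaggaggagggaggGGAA
TIMP1, chrX:47582186-47582385, plus strand: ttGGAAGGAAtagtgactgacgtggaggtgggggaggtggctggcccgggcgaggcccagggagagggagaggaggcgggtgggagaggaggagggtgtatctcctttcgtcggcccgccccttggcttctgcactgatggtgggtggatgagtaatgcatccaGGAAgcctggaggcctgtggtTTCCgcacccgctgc
MMP10, chr11:102780629-102780728, minus strand: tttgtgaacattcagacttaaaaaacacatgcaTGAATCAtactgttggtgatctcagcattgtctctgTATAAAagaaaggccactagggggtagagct

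In the 250 bases before the start, on either strand, TGANTCA was found in 4 of the 27 member entries (14.8%), against 6.57% of 35116 promoters, in MMP7, MMP10, MMP20 and ADAMTS12. MMP7 and MMP20 were tested in no line, and MMP10 was called lower in A673. The TGANTCA match began 84 bases before the start of ADAMTS12 and 67 bases before that of MMP10. GGAA was found in 25 of 27 entries (92.6%), against 92.7% of all promoters. The tandem GGAAGGAA, whose 2 copies are also counted as GGAA, was found in 2 entries (7.41%, against 3.06%), those of MMP14 and TIMP1. It began 140 bases before the start of MMP14, where it lies on the opposite strand as TTCCTTCC, and at the third base shown for TIMP1. TATAAA was found in 7 entries (25.9%, against 10.7%). These matches describe letters in a window and show no binding.

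Transcript abundance per length, as CPM per kilobase of exon, was dominated by a few members. In TC-32 siNeg libraries the order was MMP2 at 59.0, TIMP1 at 34.5, MMP14 at 32.6 and TIMP2 at 17.7 CPM per kb, and after siFLI1 it was MMP2 at 166, MMP14 at 132, TIMP3 at 80.6, TIMP1 at 78.5 and TIMP2 at 51.9. In TC-71, TIMP1 led at 286 CPM per kb in siNeg, with MMP14 next at 21.3, and led again at 178 after siFLI1, with MMP14 at 117 and MMP2 at 77.1. In A673, MMP1 led at 206 CPM per kb in siNeg, before TIMP1 at 121 and TIMP2 at 38.1. After siFLI1 it stood at 247.8, before TIMP2 at 125 and TIMP1 at 113. Between lines these levels come from tables quantified separately.

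For the MMP genes, the summed level per length was 107 ± 2.34 CPM per kb (SD, n = 3 here and below) in siNeg and 337 ± 16.7 in siFLI1 libraries of TC-32, with 42.2 ± 1.21 and 224 ± 3.09 for TC-71 and 264 ± 13 and 413 ± 6.96 in A673. The ADAMTS sum was 16.0 ± 0.209 and 62.7 ± 3.01 CPM per kb for TC-32, 20.3 ± 0.226 and 41.6 ± 0.734 for TC-71, and 9.29 ± 0.166 and 19.7 ± 0.429 in A673. The TIMP sum was 53.6 ± 1.47 and 211 ± 3.99 in TC-32 and 188 ± 2.84 and 270 ± 5.17 in A673, but 297 ± 8.79 and 204 ± 8.29 in TC-71. TIMPs were 82.6% of the total per-length level of all members in TC-71 siNeg libraries and 43.5% after siFLI1, beside 30.4% and 34.6% in TC-32 and 40.7% and 38.4% in A673. These sums were given no test.

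**Figure D1:**
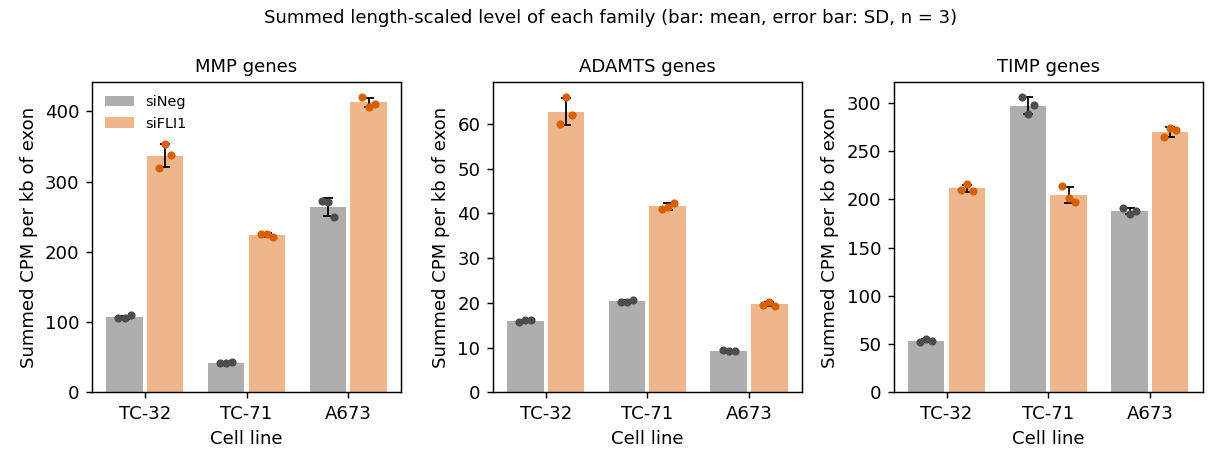
Summed level of the MMP, ADAMTS and TIMP genes in CPM per kilobase of exon (vertical axis) in each library (points) of the 6 groups, with bars at the mean and error bars of 1 SD over 3 libraries. The MMP and ADAMTS sums are higher in siFLI1 than in siNeg libraries of every line, and the TIMP sum is lower in siFLI1 libraries of TC-71 only.

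Among the collagenases, which open the triple helix of fibrillar collagen, MMP13 was at or near 0 in the siNeg libraries and detected in all siFLI1 libraries of every line. MMP13 held 0 counts in all 3 siNeg libraries of TC-32 and 30, 33 and 42 counts in the siFLI1 libraries, at least 7.76-fold higher against a floor of 3 counts per library (edgeR adjusted p = 4.31e-09). In A673 it held 6, 5 and 4 counts and then 97, 120 and 89, or 0.0415 ± 0.0081 and 0.880 ± 0.133 CPM, a log2 fold change of 4.37 (SE 0.285, adjusted p = 7.05e-10). In TC-71 it did not pass the filter, with 0, 0 and 1 counts in siNeg and 10, 14 and 12 in siFLI1 libraries, a ratio of 31.0 (95% counting interval 5.22 to 1257). The siRNA groups of MMP13 did not overlap in any line. MMP1, the interstitial collagenase, was abundant in A673 only: it stood at 580, 585 and 526 CPM in siNeg and 701, 654 and 680 CPM in siFLI1 libraries, a log2 fold change of 0.27 (SE 0.0427, adjusted p = 3.58e-05), which was 0.16 with library size as the only scaling. A gene on the other strand covers 8.14% of the exon bases of MMP1, and whether counting used the strand is not given in the sources used here. In TC-32 MMP1 stood at 0.631 to 1.21 CPM with overlapping groups (adjusted p = 0.757), and in TC-71 it held 1 to 12 counts per library and was not tested. MMP8, the neutrophil collagenase, was measured in A673 alone, where it fell from 28, 30 and 30 counts to 3, 9 and 1, a log2 fold change of -2.67 (SE 0.474, adjusted p = 8.95e-05). It held 0 counts in all libraries of the other lines.

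The gelatinases MMP2 and MMP9, which degrade denatured and basement membrane collagen, differed from each other in direction. In both TC-32 and A673, MMP2 rose and MMP9 fell. MMP2 stood at 272, 279 and 281 CPM in siNeg and 746, 815 and 778 CPM in siFLI1 libraries of TC-32 (log2 fold change 1.49, SE 0.0408, adjusted p = 1.32e-20). TC-71 libraries were at 36.6, 35.7 and 34.2 CPM and then 360, 371 and 357 CPM, 10.2-fold higher (log2 fold change 3.35, SE 0.0486, adjusted p = 4.10e-30). A673 libraries were at 90.8, 86 and 85.3 CPM and then 161, 170 and 158 CPM (log2 fold change 0.90, SE 0.0407, adjusted p = 6.66e-12). The siFLI1 libraries thus lay above all siNeg libraries in each line, and 3.70% of the exon bases of MMP2 are shared with another gene of the same strand. MMP9 stood at 8.92, 9.08 and 9.22 CPM in siNeg and 1.19, 2.20 and 1.35 CPM in siFLI1 libraries of TC-32, a fall of log2 -2.49 (SE 0.165, adjusted p = 1.02e-12). In A673 the libraries gave 2.01, 2.20 and 1.79 CPM and then 0.626, 0.781 and 0.700 CPM, a fall of log2 -1.51 (SE 0.136, adjusted p = 4.66e-08). In TC-71 the MMP9 groups overlapped, at 0.963 to 1.80 CPM in siNeg and 1.02 to 1.32 CPM in siFLI1 libraries (adjusted p = 0.468). Of the exon bases of MMP9, 18.4% lie opposite another gene. Leukocytes are a known source of MMP9, and their marker PTPRC and the other 4 leukocyte markers together lay at or below 1.73 CPM in all libraries, and their part in the MMP9 values was not tested.

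The stromelysins cut proteoglycans and glycoproteins of the matrix and activate other MMPs. MMP3 (stromelysin 1) stood at 1.90, 1.93 and 1.80 CPM in siNeg and 95.7, 84.6 and 87.1 CPM in siFLI1 libraries of A673, 47.4-fold higher (log2 fold change 5.57, SE 0.0663, adjusted p = 6.13e-19). In TC-32 it held 0 counts in all siNeg libraries and 17, 17 and 22 counts in the siFLI1 libraries, at least 4.0-fold higher (adjusted p = 4.01e-07). In TC-71 it held 0 to 2 counts in either group and was not tested. MMP10 (stromelysin 2) did not follow it: in A673 it fell from 13.4 ± 0.711 to 9.84 ± 0.606 CPM (log2 fold change -0.45, SE 0.0626, adjusted p = 7.95e-06). MMP10 did not pass in TC-32 (log2 fold change -0.23, adjusted p = 0.527) or in TC-71 (0.83, adjusted p = 0.0629), where without siFLI1 replicate 2 it did (0.99, adjusted p = 0.0480). MMP11 (stromelysin 3), which is processed by furin within the cell, rose in every line. It stood at 6.41, 7.09 and 7.49 CPM in siNeg and 131, 159 and 151 CPM in siFLI1 libraries of TC-32, 21.0-fold higher (log2 fold change 4.39, SE 0.0811, adjusted p = 1.54e-22). In TC-71 the libraries gave 12.2, 11.7 and 12.5 CPM and then 61.9, 67.7 and 61.9 CPM (log2 fold change 2.39, SE 0.0678, adjusted p = 5.31e-23). In A673 it stood at 7.18, 6.64 and 7.05 CPM and then 17.4, 20.9 and 19.2 CPM (log2 fold change 1.46, SE 0.0680, adjusted p = 9.81e-12). The siNeg libraries of the 3 lines thus lay within 6.41 to 12.5 CPM, and the siFLI1 libraries were spread from 17.4 to 159 CPM.

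**Figure D2:**
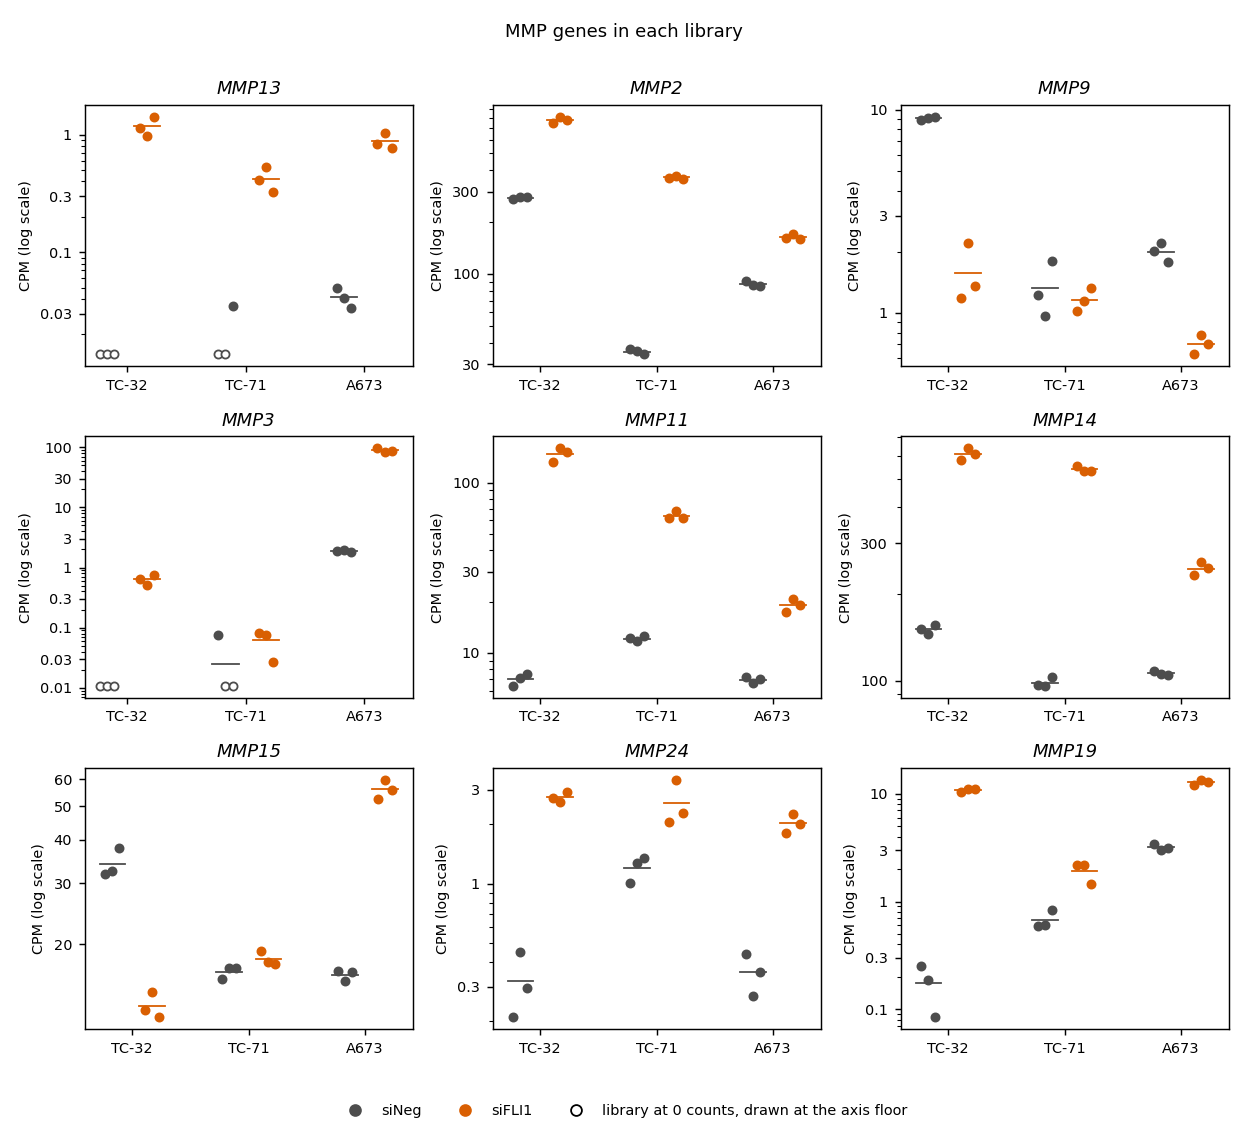
CPM (log scale, vertical axis) of 9 MMP genes in each siNeg and siFLI1 library (points) of TC-32, TC-71 and A673, with a line at the mean of 3 libraries and open circles for libraries at 0 counts, drawn at the axis floor. MMP2, MMP11, MMP14, MMP19 and MMP24 are higher in all siFLI1 libraries of every line, MMP9 is lower in those of TC-32 and A673, and MMP15 is lower in those of TC-32 and higher in those of A673.

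Membrane-type MMPs act at the cell surface, and MMP14 (MT1-MMP) is the activator of the MMP2 precursor. MMP14 stood at 152, 145 and 156 CPM in siNeg and 582, 638 and 613 CPM in siFLI1 libraries of TC-32 (log2 fold change 2.02, SE 0.0443, adjusted p = 1.59e-22). In TC-71 it stood at 96.5, 96.0 and 103 CPM and then 554, 534 and 534 CPM (log2 fold change 2.45, SE 0.0446, adjusted p = 1.07e-27). A673 libraries were at 108, 105 and 105 CPM and then 231.9, 257 and 244.9 CPM (log2 fold change 1.21, SE 0.0412, adjusted p = 1.80e-13). MMP14 rose at least 2-fold in each line and was among the most abundant members in all 6 groups. MMP15 (MT2-MMP) was called in opposite directions: it stood at 31.9, 32.5 and 37.9 CPM and then 12.9, 14.6 and 12.3 CPM in TC-32 (log2 fold change -1.36, SE 0.0821, adjusted p = 1.62e-13). In A673 the libraries gave 16.7, 15.7 and 16.6 CPM and then 52.6, 59.7 and 55.8 CPM (log2 fold change 1.78, SE 0.0526, adjusted p = 2.77e-14). In TC-71 it did not pass (0.12, adjusted p = 0.170). MMP16 (MT3-MMP) rose from 8.65 ± 0.555 to 49 ± 4.34 CPM in TC-71 (log2 fold change 2.51, adjusted p = 1.00e-21) and from 4.79 ± 0.334 to 9.06 ± 0.670 CPM in A673 (0.92, adjusted p = 1.85e-08). In TC-32 it held 1 count in a single library, and a change there was not detectable at this depth. MMP24 (MT5-MMP) rose in all 3 lines from low levels, by log2 values of 3.07, 1.08 and 2.51 for TC-32, TC-71 and A673 in turn (adjusted p = 3.87e-10, 8.96e-05 and 1.25e-09). The TC-32 libraries of MMP24 were at 0.209, 0.452 and 0.295 CPM and then 2.72, 2.61 and 2.91 CPM, those of TC-71 at 1.0, 1.27 and 1.35 and then 2.05, 3.37 and 2.29, and those of A673 at 0.441, 0.271 and 0.354 and then 1.80, 2.27 and 2.01. The groups did not overlap in any line, and 22.1% of its exon bases lie opposite another gene.

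The GPI-anchored members, which are held at the membrane by a lipid, gave mixed results. MMP17 (MT4-MMP) rose in TC-71 (log2 fold change 0.49, adjusted p = 1.34e-06) and in A673 (1.73, adjusted p = 4.99e-10), and did not pass in TC-32 (-0.28, adjusted p = 0.159). MMP25 (MT6-MMP) was called lower in TC-71 (log2 fold change -0.90, adjusted p = 0.00750) and in A673 (-1.11, adjusted p = 0.0321), on 6 to 25 counts per library in A673 and with overlapping groups there. The A673 call was lost with DESeq2 (-1.11, adjusted p = 0.0999) and without siNeg replicate 2 (-0.76, adjusted p = 0.194), siNeg replicate 3 (-1.11, 0.0722), siFLI1 replicate 1 (-1.03, 0.0735) or siFLI1 replicate 2 (-0.95, 0.106). The TC-71 call was lost without siNeg replicate 3 (-0.59, adjusted p = 0.116), and in TC-32 (0.73, adjusted p = 0.116) a call appeared without siFLI1 replicate 1 (1.05, adjusted p = 0.0173). Another gene lies opposite 30.6% of the exon bases of MMP25.

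Of the remaining MMPs, MMP19, which is found in many tissues, rose in every line. It stood at 0.251, 0.188 and 0.0842 CPM in siNeg and 10.3, 11 and 11.1 CPM in siFLI1 libraries of TC-32 (log2 fold change 5.91, SE 0.214, adjusted p = 3.23e-18). TC-71 libraries were at 0.594, 0.608 and 0.833 CPM and then 2.17, 2.18 and 1.45 CPM (log2 fold change 1.46, SE 0.266, adjusted p = 1.61e-05). In A673 it stood at 3.43, 2.98 and 3.12 CPM and then 12.1, 13.4 and 13 CPM (log2 fold change 2.01, SE 0.0739, adjusted p = 4.57e-13). The groups of MMP19 did not overlap in any line, and 17.6% of its exon bases lie opposite another gene. MMP28 (epilysin) held 0, 1 and 1 counts in siNeg and 103, 141 and 108 counts in siFLI1 libraries of TC-32, a ratio of 146 (95% counting interval 40.2 to 1212, adjusted p = 4.46e-14). In TC-71 it held 3, 0 and 4 and then 29, 36 and 42 counts (log2 fold change 3.66, SE 0.468, adjusted p = 3.52e-08), and in A673, with the deepest libraries, at most 6 counts. MMP12, the macrophage elastase, was tested in A673 alone, where it rose from 0.587 ± 0.0415 to 1.27 ± 0.177 CPM (log2 fold change 1.11, adjusted p = 7.23e-06). With A673 thinned to the total of the shallowest library its value was 0.58 (adjusted p = 0.0971). The leukocyte markers in A673 summed to 0.279 to 0.346 CPM in siNeg and 0.604 to 0.738 CPM in siFLI1 libraries, and their part in the MMP12 result was not tested.

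MMP7, MMP20, MMP27, MMP8, MMP10, MMP1, MMP3, MMP12 and MMP13 lie next to each other on chromosome 11, from 102520508 to 102955732 (GENCODE 44, GRCh38). Of these 9 genes, 6 were tested in A673, with 4 called higher and 2 lower, 4 were tested in TC-32, with 2 called higher and 0 lower, and 1 was tested in TC-71, with 0 called. Over all genes tested, 35.6% were called higher and 35.4% lower in A673, 41.3% and 40.1% in TC-32, and 36.8% and 35.0% in TC-71, and with so few cluster genes tested the counts are given as a description. Of the 13 MMP genes elsewhere, 10 passed the filter for TC-32, 11 for TC-71 and 10 for A673. Most genes of the cluster therefore lay below the filter in TC-32 and TC-71.

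ADAMTS proteases carry thrombospondin repeats, and the group ADAMTS1, 4, 5, 8, 9, 15 and 20 contains cleavers of aggrecan and versican, the large proteoglycans of cartilage and soft tissue. ADAMTS1 rose in every line. It stood at 5.65, 5.24 and 5.81 CPM in siNeg and 35.2, 35.5 and 33.6 CPM in siFLI1 libraries of TC-32 (log2 fold change 2.64, SE 0.0819, adjusted p = 1.57e-19). In TC-71 the libraries gave 44.2, 47.9 and 46.1 CPM and then 144, 146 and 149 CPM (log2 fold change 1.67, SE 0.0496, adjusted p = 1.55e-22), and those of A673 21.8, 21.8 and 22.5 CPM and then 46.3, 41.7 and 44.1 CPM (1.00, SE 0.0477, adjusted p = 1.41e-11). The other genes of the group were not all tested in every line, and ADAMTS20 was tested in none. ADAMTS5, the main aggrecanase of mouse cartilage, went from 0.446, 0.152 and 0.382 CPM to 27.2, 31.5 and 35.0 CPM in TC-71 (log2 fold change 6.49, SE 0.174, adjusted p = 3.31e-22). In A673 it went from 1, 2 and 1 counts to 32, 23 and 25 counts (log2 fold change 4.25, SE 0.511, adjusted p = 1.08e-06), and in TC-32 it held at most 1 count in any library. The difference in ADAMTS5 between A673 and TC-71 did not pass (interaction -2.39, adjusted p = 0.0627). ADAMTS9 rose from 41.0 ± 1.76 to 58.1 ± 2.92 CPM in TC-32 (log2 fold change 0.50, adjusted p = 2.81e-08). In A673 it went from 0.441, 0.615 and 0.514 CPM to 13, 13.8 and 11.7 CPM (4.61, SE 0.110, adjusted p = 1.82e-15), and in TC-71 it held 1 count in 1 of 6 libraries.

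ADAMTS15, ADAMTS8 and ADAMTS4 of the same group were called in opposite directions between lines. ADAMTS15 stood at 1.47, 1.70 and 1.68 CPM in siNeg and 71.5, 73.9 and 74.4 CPM in siFLI1 libraries of TC-32 (log2 fold change 5.50, SE 0.0903, adjusted p = 8.35e-25). A673 libraries were at 1.93, 1.82 and 2.05 CPM and then 18.8, 20.5 and 19.2 CPM (3.34, SE 0.0699, adjusted p = 3.30e-16). In TC-71 it started higher, at 22.1, 21.3 and 22.5 CPM, and fell to 9.0, 8.68 and 8.43 CPM (-1.34, SE 0.0824, adjusted p = 6.96e-15). TC-71 was thus the line with the highest siNeg and the lowest siFLI1 level of ADAMTS15. ADAMTS8, which has been described as an inhibitor of vessel growth, lies 20035 bases from ADAMTS15 on chromosome 11 and had the same signs. It fell from 7.43, 8.26 and 7.15 CPM to 1.64, 1.68 and 1.51 CPM in TC-71 (-2.24, SE 0.145, adjusted p = 2.18e-14) and rose from 3, 1 and 0 counts to 10, 16 and 13 counts in TC-32 (2.91, SE 0.662, adjusted p = 0.000217). In A673 it was not tested, with 2, 1 and 5 counts in siNeg and 13, 8 and 12 in siFLI1 libraries. ADAMTS4 fell from 40.2 ± 1.15 to 22.1 ± 1.77 CPM in TC-32 (-0.86, SE 0.0675, adjusted p = 2.11e-11) and was called higher in A673, at 31.0 ± 1.5 and 35.6 ± 2.73 CPM (0.20, SE 0.0561, adjusted p = 0.00528). The A673 call was lost with library size as the only scaling (0.09, adjusted p = 0.151), which moved the median of all genes from -0.0066 to -0.11, and in TC-71 ADAMTS4 did not pass (0.11, adjusted p = 0.160).

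**Figure D3:**
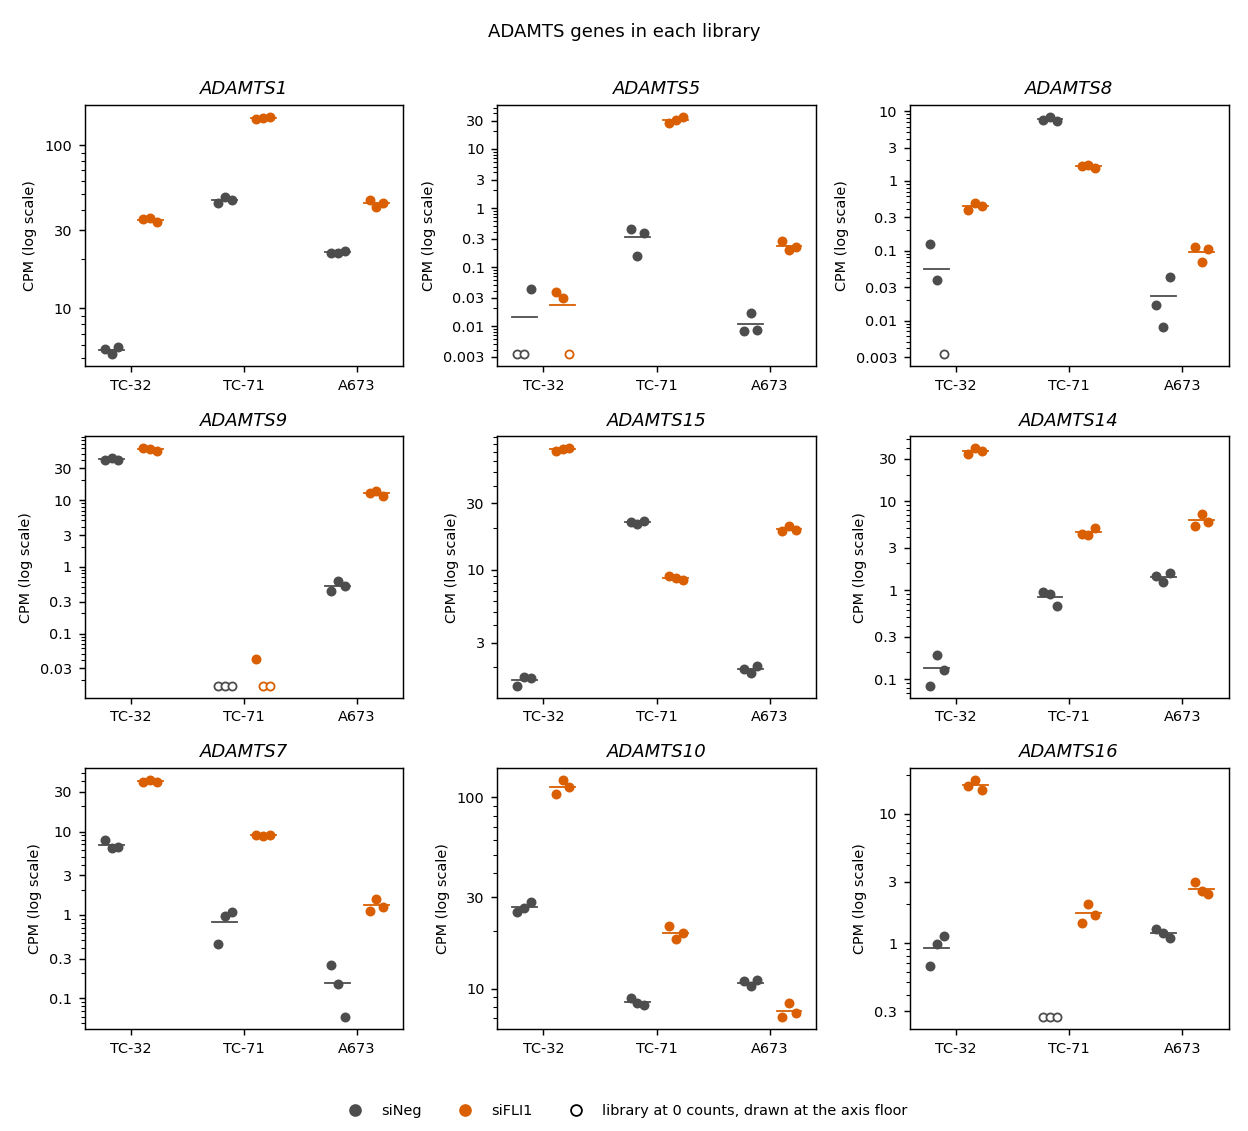
CPM (log scale, vertical axis) of 9 ADAMTS genes in each siNeg and siFLI1 library (points) of the 3 lines, with a line at the mean of 3 libraries and open circles for libraries at 0 counts, drawn at the axis floor. ADAMTS8 and ADAMTS15 are lower in siFLI1 libraries of TC-71 and higher in those of TC-32, ADAMTS10 is lower in those of A673 alone, and ADAMTS1, ADAMTS7, ADAMTS14 and ADAMTS16 are higher in all siFLI1 libraries of every line.

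ADAMTS2, ADAMTS3 and ADAMTS14 remove the amino-terminal propeptide of fibrillar procollagens, a step in collagen fibril formation. ADAMTS14 held 2, 5 and 3 counts in siNeg and 879, 1326 and 1084 counts in siFLI1 libraries of TC-32, or 0.133 ± 0.0527 and 36.6 ± 2.85 CPM (log2 fold change 8.04, SE 0.172, adjusted p = 8.37e-23). In TC-71 it stood at 0.965, 0.913 and 0.659 CPM and then 4.26, 4.21 and 4.98 CPM (2.43, SE 0.195, adjusted p = 3.33e-12), and in A673 at 1.46, 1.23 and 1.55 CPM and then 5.29, 7.17 and 5.91 CPM (2.12, SE 0.121, adjusted p = 1.44e-10). ADAMTS3 rose in A673 from 0.346 ± 0.0733 to 5.50 ± 0.377 CPM (3.98, SE 0.132, adjusted p = 1.17e-13) and was not tested in the other lines. ADAMTS2 rose in TC-71 (0.96, adjusted p = 6.08e-10) and A673 (1.86, adjusted p = 1.46e-05). In TC-32 ADAMTS2 held 0 counts in siNeg and 5, 12 and 9 counts in siFLI1 libraries, at least 1.52-fold higher, and was not tested. All 6 tests run on these 3 genes over the lines were called higher. The share called higher among all genes was 41.3% (TC-32), 36.8% (TC-71) and 35.6% (A673). ADAMTS14 in TC-32 passed the filter only through its siFLI1 libraries, which favours a higher call. The 6 tests also repeat the same 3 genes across lines, so their count is given as a description.

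ADAMTS7 and ADAMTS12 cut COMP, the cartilage oligomeric matrix protein. ADAMTS7 stood at 8.0, 6.33 and 6.57 CPM in siNeg and 38.8, 41.6 and 39.0 CPM in siFLI1 libraries of TC-32 (log2 fold change 2.52, SE 0.0844, adjusted p = 7.91e-19). TC-71 libraries were at 0.446, 0.963 and 1.08 CPM and then 9.04, 8.84 and 9.05 CPM (3.44, SE 0.180, adjusted p = 1.36e-16), and those of A673 at 0.249, 0.148 and 0.059 CPM and then 1.11, 1.55 and 1.25 CPM (3.09, SE 0.289, adjusted p = 7.17e-08). The siNeg level of ADAMTS7 thus differed widely between lines, and its siFLI1 libraries lay above it in each. ADAMTS12 stood at 0.167, 0.452 and 0.295 CPM and then 6.13, 6.86 and 7.04 CPM in TC-32 (4.41, SE 0.230, adjusted p = 5.76e-15), and at 1.53, 1.63 and 1.71 CPM and then 14.4, 13.5 and 13.8 CPM in A673 (3.10, SE 0.0737, adjusted p = 1.70e-15). In TC-71 ADAMTS12 held 1 count in all 6 libraries together. ADAMTS13, which cleaves von Willebrand factor, rose by a log2 fold change of 0.91 in TC-32 (adjusted p = 6.51e-09) and 0.61 in TC-71 (3.30e-08). In A673 it did not pass (0.30, adjusted p = 0.0905), but did without siNeg replicate 3 (0.42, adjusted p = 0.0454).

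ADAMTS6 and ADAMTS10 are linked to the fibrillin microfibrils of the matrix. ADAMTS10 rose in TC-32 from 25.1, 26.5 and 28.5 CPM to 104, 123 and 113 CPM (log2 fold change 2.09, SE 0.0657, adjusted p = 1.37e-18) and in TC-71 from 8.91, 8.42 and 8.26 CPM to 21.2, 18.1 and 19.6 CPM (1.20, SE 0.0890, adjusted p = 5.36e-13). In A673 it fell from 10.9, 10.3 and 11.1 CPM to 7.08, 8.44 and 7.50 CPM (-0.49, SE 0.0697, adjusted p = 1.04e-05). ADAMTS6 rose from 0.293, 0.113 and 0.168 CPM to 1.15, 0.921 and 1.25 CPM in TC-32 (2.51, adjusted p = 2.56e-06) and from 2.30, 2.33 and 2.05 CPM to 8.31, 7.31 and 8.81 CPM in TC-71 (1.88, adjusted p = 3.35e-13). It was also called higher in A673 (0.54, adjusted p = 0.000559), but did not pass once A673 was thinned to the shallowest total (0.31, adjusted p = 0.238). ADAMTS16 stood at 0.670, 0.980 and 1.14 CPM and then 16.3, 18.3 and 15.3 CPM in TC-32 (4.15, SE 0.148, adjusted p = 2.73e-18), and at 1.28, 1.21 and 1.10 CPM and then 2.96, 2.52 and 2.42 CPM in A673 (1.14, SE 0.116, adjusted p = 2.18e-07). In TC-71 ADAMTS16 held 0 counts in every siNeg library and 35, 53 and 61 counts in the siFLI1 libraries, at least 9.42-fold higher (adjusted p = 4.12e-11). ADAMTS17 rose from 0.419, 0.377 and 0.126 CPM to 2.26, 1.99 and 2.23 CPM in TC-32 (2.78, adjusted p = 1.89e-08) and from 7.72, 6.03 and 7.53 CPM to 16.9, 17.8 and 16.8 CPM in TC-71 (1.26, adjusted p = 1.13e-12). It held at most 9 counts in A673. ADAMTS19 was called lower in TC-71 on 9 to 29 counts per library (-0.95, adjusted p = 0.0107), and without siNeg replicate 1 it did not pass (-0.85, adjusted p = 0.0529).

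The 4 inhibitors did not share one pattern. TIMP2 rose in every line: it stood at 111, 109 and 109 CPM in siNeg and 320, 325 and 322 CPM in siFLI1 libraries of TC-32 (log2 fold change 1.55, SE 0.0415, adjusted p = 7.85e-21). In TC-71 the libraries gave 16.9, 14.9 and 17.6 CPM and then 95.1, 98.9 and 96.1 CPM (2.55, SE 0.0621, adjusted p = 1.33e-24), and those of A673 242, 230.8 and 236 CPM and then 775, 777 and 773 CPM (1.71, SE 0.0339, adjusted p = 1.69e-16). Of the exon bases of TIMP2, 5.91% lie opposite other genes and 3.61% are shared with one on its own strand. TIMP3, the matrix-bound inhibitor, also rose in every line but by unequal amounts. It stood at 5.82, 5.35 and 4.84 CPM and then 381, 364 and 367 CPM in TC-32, 69.4-fold higher (6.12, SE 0.0642, adjusted p = 2.63e-28). In A673 the libraries gave 47.1, 46.6 and 48 CPM and then 116, 113 and 116 CPM (1.28, SE 0.0381, adjusted p = 2.96e-14), and those of TC-71 41.3, 39.0 and 37.7 CPM and then 50.5, 49.7 and 47.6 CPM (0.32, SE 0.0581, adjusted p = 1.42e-05). TC-32 had the lowest siNeg and the highest siFLI1 level of TIMP3.

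TIMP1 and TIMP4 were called in opposite directions between lines. TIMP1 rose in TC-32 from 47.9, 52.3 and 49.5 CPM to 108, 122 and 111 CPM (log2 fold change 1.19, SE 0.0557, adjusted p = 7.24e-16). In TC-71, the line with the highest siNeg level, it fell from 425, 401 and 415 CPM to 271, 253 and 248.4 CPM (-0.69, SE 0.0430, adjusted p = 1.09e-14). In A673 it stood at 176, 173 and 175 CPM and then 154, 168 and 166 CPM, called lower by a small margin (-0.10, SE 0.0395, adjusted p = 0.0290). The A673 call was lost without siNeg replicate 1 (-0.09, adjusted p = 0.101), siNeg replicate 2 (-0.11, 0.0689), siNeg replicate 3 (-0.10, 0.100), siFLI1 replicate 1 (-0.06, 0.0960) or siFLI1 replicate 3 (-0.11, 0.0566), and with library size as the only scaling the value was -0.21. TIMP4 fell in A673 from 23.1, 21.7 and 22.2 CPM to 9.14, 9.71 and 8.61 CPM (-1.29, SE 0.0566, adjusted p = 4.74e-12). In TC-32 it was called higher on 3, 7 and 9 counts in siNeg and 11, 22 and 15 counts in siFLI1 libraries (1.05, SE 0.436, adjusted p = 0.0291). The TC-32 call was lost with no low-count filter (1.02, adjusted p = 0.0681), with DESeq2 (1.06, 0.112) and without siNeg replicate 1 (0.72, 0.165), siNeg replicate 2 (1.06, 0.0711), siFLI1 replicate 2 (0.85, 0.136) or siFLI1 replicate 3 (1.07, 0.0570). In TC-71 TIMP4 held 0 counts in siNeg and 3, 5 and 3 counts in siFLI1 libraries and was not tested. Another gene lies opposite 14.2% of the exon bases of TIMP4.

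**Figure D4:**
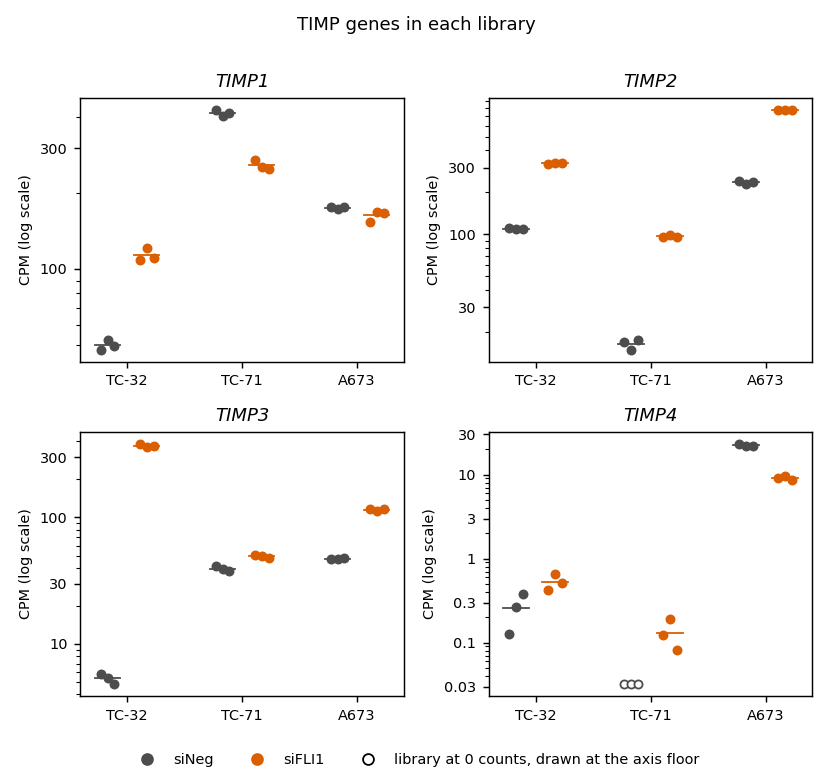
CPM (log scale, vertical axis) of the 4 TIMP genes in each siNeg and siFLI1 library (points) of the 3 lines, with a line at the mean of 3 libraries and open circles for libraries at 0 counts, drawn at the axis floor. TIMP2 and TIMP3 are higher in all siFLI1 libraries of every line, while TIMP1 is higher in those of TC-32 and lower in those of TC-71, and TIMP4 is lower in those of A673.

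MMP2, its activator MMP14 and TIMP2, the genes of the surface activation step described above, all rose in each line, but in different proportions. Per kilobase of exon, MMP14 stood at 1.85 ± 0.0696 times the level of TIMP2 in siNeg and 2.54 ± 0.100 times in siFLI1 libraries of TC-32. In TC-71 the ratio was 8.07 ± 0.513 and then 7.51 ± 0.292, with overlapping libraries (7.69 to 8.65 and 7.24 to 7.82). In A673 it was 0.603 ± 0.00938 and then 0.424 ± 0.0216, and the groups did not overlap. MMP14 thus lay above TIMP2 per length in TC-32 and TC-71 and below it in A673, under both siRNAs. These ratios were given no test, and with 3 against 3 libraries an exact permutation test could not go below p = 0.10.

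An interaction in one edgeR model over the 18 libraries tested whether siFLI1 acted differently in 2 lines. This model was filtered over all 6 groups, so its 38 members include MMP21 and leave out MMP8. Of these 38, the effect differed for 27 between A673 and TC-32 (71.1%, against 62.1% of all genes), for 26 between TC-71 and TC-32 (68.4%, against 53.6%) and for 23 between A673 and TC-71 (60.5%, against 51.6%). Some of these differences involve a line where the gene was not tested alone, such as ADAMTS2 in TC-32 and TIMP4 in TC-71. The counts are therefore not all of effects measured in both lines. Each share of differing effects lay above that of all genes, and the gap was not tested. Of 28 members tested in both A673 and TC-32, 5 were called in opposite directions (17.9%, against 15.0% of all genes tested in both), namely MMP15, ADAMTS4, ADAMTS10, TIMP1 and TIMP4. For TC-71 and TC-32 these were 3 of 25 (12%, against 9.13%), namely ADAMTS8, ADAMTS15 and TIMP1, and for A673 and TC-71 2 of 25 (8.0%, against 11.3%), namely ADAMTS10 and ADAMTS15. These shares of opposite calls lie near those of all genes. The interaction passed in all 10 cases. They were picked for opposite calls in these same libraries, so a passing interaction is no separate support. Among the 10 cases, the difference was widest for ADAMTS15, whose log2 fold change was lower by 6.83 in TC-71 than in TC-32 (interaction -6.83, SE 0.118, adjusted p = 3.30e-31). For MMP15 the log2 fold change in A673 exceeded that in TC-32 by 3.11 (SE 0.0965, adjusted p = 2.94e-24). ADAMTS1 and ADAMTS5, 72512 bases apart on chromosome 21, both rose in TC-71 and A673, while in TC-32 ADAMTS1 rose and ADAMTS5 held at most 1 count.

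Other genes of the same biology were taken from 4 lists of 38 genes in all: activators and other regulators of these proteases, ADAM proteases, ADAMTS-like proteins and substrates. The lists were chosen with earlier results of these data known, so their counts are a description and no independent support. The regulators include MMP23B, an MMP gene outside the member rule, which was called higher in the 2 lines where it was tested. In TC-32, 28 of 31 tested were called higher and 3 lower, in TC-71 23 of 27 and 1, and in A673 30 of 32 and 1, beside the shares of all genes given above. The median log2 fold change over the lists was 1.91, 1.39 and 1.73 for TC-32, TC-71 and A673 in turn. Of the genes tested in all 3 lines, those called higher in each were 9 of 12 regulators, 5 of 6 ADAM genes, 5 of 5 ADAMTS-like genes and 2 of 3 substrates, beside 18.9% of all genes. Among the regulators, A2M, which encodes the plasma inhibitor alpha-2-macroglobulin, rose by log2 values of 5.29, 3.37 and 4.70 for TC-32, TC-71 and A673. LRP1, the receptor that clears MMPs and TIMPs from the cell surface, rose by 2.60, 1.22 and 1.68 in the same order. TFPI2, a serine protease inhibitor of the matrix, rose by 2.87, 1.67 and 4.01. RECK, a membrane-anchored inhibitor of MMPs, rose by 1.29, 0.61 and 0.84, and FURIN, the convertase that activates MMP11 and MMP14, rose by 0.71, 1.39 and 0.53. BSG, which encodes the MMP inducer basigin, was called lower in TC-32 (-0.56) and A673 (-0.12) and higher in TC-71 (0.40). Among the ADAM proteases, which shed surface proteins, ADAM19 rose in every line (3.32, 3.22 and 3.22), and ADAM15 fell in TC-32 (-1.0) and TC-71 (-0.20) and rose in A673 (0.38). Among the substrates, FBN1, which encodes fibrillin 1, rose in every line (3.74, 4.99 and 2.66), and BCAN, the brain proteoglycan brevican, fell in TC-32 (-1.37).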

How the data were processed

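RNA sequencing of mRNA was compared between 3 siFLI1 and 3 siNeg libraries in each of 3 lines. Per the labels' protocols, libraries came from a stranded kit. The deposited values are expected counts in the case of TC-32 and A673 (RSEM, per the table names) and counts in the case of TC-71 (Subread, per the table name), neither scaled to depth. The submitters' processing notes name cutadapt 4.4, STAR 2.7.3, featureCounts, Subread 2.0.3, limma 3.38.3 and GRCh38, without roles. The strand setting and annotation release are not given in the sources used here. The columns of TC-32 and TC-71 do not name the line, which rests on the table name.

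Expected counts were rounded. Each line was fitted alone in R 4.3.3 with edgeR 4.0.16 (filterByExpr by group, TMM scaling, robust quasi-likelihood F-test), adjusted by Benjamini-Hochberg over all genes tested and called under 0.05. Every adjusted p is from this procedure unless another tool is named. Log2 fold changes carry edgeR's prior count of 0.125, standard errors come from unshrunken coefficients, and CPM are TMM-scaled. Differences between lines were interaction contrasts in a model with 6 group means. A fold against a group at 0 used a floor of 3 counts per library. Intervals and floors cover counting error only, since reads carry no molecular identifiers. The scripts were tested on simulated data. Positions and exon lengths are from GENCODE 44 (GRCh38), read with Python 3.11.15, and promoters from RefSeq (GRCh38.p14).

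Alternatives in the tool were DESeq2 1.42.0 and voom from limma 3.58.1, in the scaling RLE size factors or total counts only, and in the filter none or a mean minimum of 10 counts. Further fits had a block for the replicate number, or left out each library, and others had A673 thinned to 19685354 counts, a 2-fold threshold for genes shared by the lines, and only the 12 libraries of a pair of lines. Full values are given for all TIMPs, for members called at least 2-fold in one direction in 2 or more lines, for those called in opposite directions, and for the 3 largest changes per line; the others are given briefly. Members and lists were chosen with earlier results of these data known. Marker lists were of 6 Ewing sarcoma, 5 leukocyte, 4 endothelial and 4 epithelial genes; the epithelial list summed to at most 6.63 CPM. A further leukocyte marker is not reported here.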

Additional observations from a re-analysis of the deposited data

Results flagged for a closer look

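The effect of siFLI1 went in opposite directions, with an interaction that passed (edgeR, adjusted over all genes), for 7 members, in 10 combinations of a member and a pair of lines. Among all genes tested in both lines, 15.0% were called in opposite directions for A673 and TC-32, 9.13% for TC-71 and TC-32 and 11.3% for A673 and TC-71, and the members' shares lie near these. Each value is the log2 fold change in the first line minus that in the second. For MMP15 it was 3.11 for A673 minus TC-32 (SE 0.0965, adjusted p = 2.94e-24). For ADAMTS4 the same pair gave 1.03 (SE 0.0892, adjusted p = 3.04e-12). ADAMTS8 gave -5.20 for TC-71 minus TC-32 (SE 0.583, adjusted p = 1.63e-09). Its neighbour ADAMTS15 gave -6.83 for TC-71 minus TC-32 (SE 0.118, adjusted p = 3.30e-31) and 4.64 for A673 minus TC-71 (SE 0.0979, adjusted p = 4.70e-28). ADAMTS10 gave -2.60 for A673 minus TC-32 (SE 0.0962, adjusted p = 3.95e-22) and -1.72 for A673 minus TC-71 (SE 0.112, adjusted p = 4.06e-15). TIMP1 gave -1.31 for A673 minus TC-32 (SE 0.0670, adjusted p = 2.67e-18) and -1.86 for TC-71 minus TC-32 (SE 0.0677, adjusted p = 4.96e-22). TIMP4 gave -2.37 for A673 minus TC-32 (SE 0.363, adjusted p = 8.92e-07). The single-line calls of TIMP1 and ADAMTS4 in A673 and of TIMP4 in TC-32 were lost under settings named with them. In TC-32, ADAMTS8 and TIMP4 passed the filter only through their siFLI1 libraries. All 10 combinations were picked for opposite calls in these same libraries, so their interactions are no separate support. Line and medium, and any difference in time, cannot be told apart in the differences between A673 and TC-32, nor line and counting program in those between TC-71 and TC-32, nor any of these in those between A673 and TC-71. Unequal depletion of FLI1 goes with the line in all 3 pairs, and sequencing depth in those with A673.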

How the results depend on the processing

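Counts of members called stayed within 1.5 times their main value in every alternative run. Leaving out each library gave 23 to 25 higher and 3 lower in TC-32, 20 to 21 and 4 to 5 in TC-71, and 26 to 28 and 5 to 6 in A673; the other alternatives gave 22 to 26 and 3, 20 to 23 and 5, and 22 to 28 and 5 to 7. Members higher in all 3 lines numbered 12 to 13 on leaving out a library, a check added after seeing the data, and 8 to 14 otherwise, the 8 being the 2-fold threshold. Members whose effect differed numbered 22 to 29 over all pairs and alternatives. The 104 member values followed were the tested log2 fold changes and the 10 interactions of opposite direction. Of their 1440 recomputed values, 1412 kept direction and call, 22 lost a call, 3 gained one and 3 changed sign. All 3 sign changes were in values not called. The range of those values on leaving out each library was -0.33 to 0.12 for MMP1 in TC-32, -0.38 to 0.078 for MMP9 in TC-71 and -0.48 to 0.13 for MMP10 in TC-32. The 10 interactions, included in the 104 values, all kept direction and call. Libraries of the same line and siRNA correlated at 0.991 or more on log CPM. To look for pairing by number, the mean of each siRNA group was subtracted from log CPM. The remaining deviations of same-numbered siNeg and siFLI1 libraries correlated at -0.0784 to 0.0422 over 9 pairs. No pairing by number was seen in them, and not every library correlated best with its own number. With the replicate number as a block, 24 members were higher and 3 lower in TC-32, 20 and 5 in TC-71 and 26 and 6 in A673, TIMP1 in A673 no longer passing (-0.10, adjusted p = 0.0814). Scaling A673 by library size alone moved the share of higher calls among all genes from 50.1% to 40.9%. Depth limits members near 3 counts, mostly in TC-32 and TC-71.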
